A study of Mus musculus with 3 samples.

Results

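The mitochondrial ribosomal protein genes are the nuclear genes that encode the protein part of the mitochondrial ribosome. They were taken here as the protein-coding RefSeq genes of the mouse whose symbol begins with Mrpl or Mrps followed by a number, which gave 78 of 21887 protein-coding genes. Of these, 49 carry the large-subunit name Mrpl and 29 the small-subunit name Mrps. The symbol is a naming convention rather than a location: the proteins of Mrps18a and Mrps30 sit in the large subunit, and Mrps36 encodes a component of the 2-oxoglutarate dehydrogenase complex. The rule uses names and no measured value, but the gene set was proposed with earlier results of these data known.

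The mitochondrial ribosome translates the few mRNAs made from mitochondrial DNA, all of which encode subunits of the respiratory chain and ATP synthase. Its RNAs come from the mitochondrial genome, whereas all of its proteins are transcribed in the nucleus, translated in the cytosol and imported. Part of them have bacterial homologues and the rest were added during the evolution of mitochondria. In many cells mTORC1, the rapamycin-sensitive mTOR complex, promotes translation of mRNAs for nuclear-encoded mitochondrial proteins through the 4E-BP translation repressors, and YY1, NRF1 and the ETS factor GABPA are known transcriptional regulators of such genes. Hematopoietic stem cells (HSCs) rely largely on glycolysis when quiescent and raise mitochondrial activity when they proliferate or differentiate.

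Accessible DNA was mapped by ATAC-seq, an assay that lets a transposase cut open chromatin and tag it for sequencing, in HSCs sorted from adult mice treated with poly(I:C), an inducer of interferon. The mice were Mx1-Cre-/-;mTORflox/flox, which means that the mTOR alleles were floxed but intact because no Cre recombinase was present, and this holds for all 3 groups. The sorted cells were cultured in a serum-free medium and given the solvent DMSO, 200 nM AZD2014, which competes with ATP at the mTOR kinase, or 1 µM rapamycin, which acts through an FKBP protein and binds mTOR outside the kinase site. There was 1 library of 50000 cells per condition, so the spread between replicates is unknown, conditions could not be tested against each other, and no p-value is given. The doses differ, so the 2 drugs are set side by side and not compared at matched exposure.

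The measurement is a list of peaks per library, each with a position on mm10 and the authors' score, and read depth is unknown. The lists hold 17189 peaks for DMSO, 21321 for AZD2014 and 18233 for rapamycin, with lowest scores of 50.01, 50 and 50. A gene without a peak is therefore one at which no region passed that threshold, which does not show that its chromatin was closed. Scores were ranked within a list, rank 1 being the highest and tied scores sharing a mean rank, and lists were also shortened to their 17189 highest scores so that they had 1 length. Of 17 marker genes of HSCs and progenitors, 8 had a gene-end peak (within 1 kb of either end of the gene) in the DMSO list, 9 in the AZD2014 list and 6 in the rapamycin list, while 16 had a peak within 20 kb in each. For markers of other cells the gene-end numbers, in the order DMSO, AZD2014, rapamycin, were 3, 3 and 3 of 5 (erythroid), 2, 2 and 2 of 3 (megakaryocyte), 1, 2 and 2 of 4 (B cell) and 0, 0 and 0 of 4 (T cell). They were 0, 0 and 2 of 8 for neutrophils and monocytes, 0, 0 and 1 of 4 for mast cells and basophils, and 1, 2 and 1 of 4 for genes listed as non-blood. The genes listed as non-blood were Alb, Epcam, Col1a1 and Pecam1, of which Pecam1 is not limited to non-blood cells. Within 20 kb they were 4, 4 and 4 (erythroid), 2, 2 and 3 (megakaryocyte), 4, 4 and 4 (B cell), 3, 3 and 3 (T cell), 4, 4 and 6 (neutrophil and monocyte), 1, 2 and 3 (mast cell and basophil) and 2, 3 and 1 (non-blood). The part of the cell makeup in the values below was not tested.

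Most mitochondrial ribosomal protein genes had open chromatin at a gene end in every condition. A peak lay within 1 kb of either end of the gene at 66 members under DMSO (84.6%, exact 95% binomial interval 74.7 to 91.8), against 46% of all protein-coding genes. Under AZD2014 there were 73 members with such a peak (93.6%, 85.7 to 97.9), against 49.5% of all genes, and under rapamycin 68 (87.2%, 77.7 to 93.7), against 46.9%. The intervals are exact Clopper-Pearson intervals over genes and cover counting error only. With all lists at 1 length the members numbered 66, 70 and 67, against 46%, 47% and 46.3% of all genes. Both subunits had this pattern, with 41, 46 and 44 of the 49 Mrpl genes and 25, 27 and 24 of the 29 Mrps genes marked in the 3 lists, in the order DMSO, AZD2014, rapamycin. In all 3 lists, 64 members (82.1%) were marked, compared with 43.5% of all genes, 5 members (6.41%) were marked in none, against 48.5% of all genes, and 9 (11.5%) in 1 or 2, against 7.93%.

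The 5 members with no gene-end peak in any list were not without open chromatin. Mrps2, Mrpl22, Mrpl24 and Mrps23 each had a peak within 1 kb of an annotated transcription start in all 3 lists, which lies well inside the gene as the table of genes gives it. Mrpl22 and Mrpl24 encode proteins near the exit tunnel through which the new chain leaves the ribosome, and Mrps2 a small-subunit protein. The peak at Mrps23 had a score of 100.2 under DMSO (rank 10154.5), 318 under AZD2014 (rank 4734) and 166 under rapamycin (rank 7473.5). That of Mrpl22 stood near the threshold in all 3 lists, with scores of 51.15, 67.43 and 54.58. Mrpl4, for which the table of starts has no entry, had a peak inside the gene in each list, 1214 bp from the nearer gene end under DMSO, with scores of 104, 133 and 90.19.

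When a peak at a gene end, at an annotated start or in the gene body was counted, a rule chosen after the values had been seen, 72 members had a peak under DMSO (54.3% of all genes did), all 78 under AZD2014 (58.4%) and 73 under rapamycin (55.5%). With lists of 1 length they were 72, 75 and 72. Counted this way, a peak was present under AZD2014 and not DMSO at 6 members (5.45% of all genes) and the reverse at 0 (1.33%), under rapamycin and not DMSO at 3 (3.76%) and the reverse at 2 (2.52%), and under AZD2014 and not rapamycin at 5 (4.55%) and the reverse at 0 (1.67%). The 6 members without any such peak under DMSO were Mrpl21, Mrpl35, Mrpl42, Mrpl53, Mrps22 and Mrps25. The 5 without one under rapamycin were Mrpl35, Mrpl53, Mrps21, Mrps25 and Mrps31. Every member thus had an open region under AZD2014 in the full list, which is also the longest list. At equal lengths Mrpl16, Mrpl21 and Mrps31 had none under AZD2014.

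The gene-end status of 9 members (11.5%) differed between the full lists, where 7.93% of all genes differed, and apart from Mrpl18 none of their peaks scored above 167.32. Under AZD2014 and not DMSO, a gene-end peak was present at 7 members, where 4.63% of all genes show this, and the reverse held for 0, against 1.09% of all genes. Of the 12 members without a DMSO peak at a gene end, 7 had an AZD2014 peak, and of the 11825 such genes in all 1014 (8.58%). These sets are unlike, since 10625 of the 11825 genes, but 5 of the 12 members, had no gene-end peak in any list. Of the 7, Mrpl18 had a strong DMSO peak just outside the window, as given below. For rapamycin and not DMSO there were 4 members (3.05% of all genes) and for DMSO and not rapamycin 2 (2.09%). At equal lengths the AZD2014 and DMSO numbers were 6 (3.03%) and 2 (1.96%), and the rapamycin and DMSO numbers 4 (2.66%) and 3 (2.34%). As shares of the 78 members, the full-list numbers are 8.97% and 0% for AZD2014 and 5.13% and 2.56% for rapamycin, and no replicate library shows how many genes would move between libraries of the same condition. These shares, and those between the drugs below, have unlike bases, since 48.5% of all genes but 6.41% of members were marked in no full list. Of all genes, 9526 were marked in all 3 full lists and 1736 in 1 or 2, and of members 64 and 9. The counts above with the start and gene body added have the same limit, with 54.3% of all genes but 92.3% of members marked under DMSO.

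Mrpl42, which encodes a mitochondria-specific protein of the mitochondrial ribosome, had no DMSO peak, an AZD2014 peak with a score of 114.72 (rank 11904) and a rapamycin peak with a score of 167.32 (rank 7413). Of the members whose status differed from DMSO without an overlapping DMSO peak, this rapamycin peak stood nearest the top of its list, and it covered chr10:95501478-95502130, from -181 to 471 bp relative to the annotated start. Mrps22, a small-subunit gene, was arranged the other way, with scores of 151.21 (rank 9786) under AZD2014 and 80.8 (rank 12633) under rapamycin and no DMSO peak. Mrpl21 had weak peaks under both drugs, with scores of 66.95 and 60.54, at a region that it shares with the end of Ighmbp2, a helicase gene. At equal list lengths it was marked under rapamycin alone.

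Mrps25, Mrpl35 and Mrpl53 had a gene-end peak under AZD2014 alone. The Mrps25 peak was the strongest of these, with a score of 132.57 (rank 10775, chr6:92183757-92184160). Those of Mrpl35 and Mrpl53 scored 79.57 (rank 15328) and 77.26 (rank 15651.5), and the Mrpl53 peak also reaches the end of Ccdc142. None of the 3 had a DMSO or rapamycin peak within 500 bp. All 3 genes lie on chromosome 6, in separate regions.

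Mrps21 and Mrps31 had no peak in the rapamycin list and a gene-end peak in both other lists. Mrps21 had scores of 107.54 (rank 9633) and 133.34 (rank 10724.5), well above the lowest score of either list. Mrps31 scored 59.13 and 52.37, close to the lowest score, and at equal lengths it was marked under DMSO alone. For 2 further members the status differed only at equal lengths: the rapamycin peak of Mrps34 (score 51.5) and the AZD2014 peak of Mrpl16 (score 62.2) are not among the 17189 highest scores.

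Mrpl18 is the exception among the 9, since its status came from the edge of the window. It encodes a large-subunit protein with a bacterial homologue, and its peak region is shared with Tcp1, the gene of a subunit of the chaperonin that folds actin and tubulin. Its DMSO peak was strong (score 482, rank 570, chr17:12915789-12916773) but lay 1014 bp from the nearer gene end as the table gives it, just outside the 1 kb window. The AZD2014 peak (score 627.35, rank 780) and the rapamycin peak (score 584, rank 495) overlapped it and lay 718 and 736 bp from that end, inside the window. All 3 peaks cover the start region printed below.

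Promoter sequences are printed for Mrpl42, Mrps22, Mrps25, Mrpl35, Mrpl53 and Mrps21, where a peak was in some lists and not in others, and for Mrpl18, whose status came from the window edge while its peak covered the start in each list. Mrpl21 and Mrps31, whose peaks stood near the threshold, are not printed. Beside them are those of Mrpl17, which had the highest-scoring member peak in each list, and Mrps18c, which had the largest rank difference from DMSO under both drugs. Each runs from 250 bases before to 50 bases after the annotated start, read 5′ to 3′ on the strand of the gene, from RefSeq on GRCm38.p6. Capitals mark every match, on either strand, to one of 7 short motifs: CCGGAAG for ETS factors such as GABPA, GCATGCG for the core of the NRF1 site, AAGATGG for YY1, GGGCGG for Sp1 and related factors, CCAAT for NF-Y, CACGTG for the E-box and TATAAA for the TATA box.
Mrpl42: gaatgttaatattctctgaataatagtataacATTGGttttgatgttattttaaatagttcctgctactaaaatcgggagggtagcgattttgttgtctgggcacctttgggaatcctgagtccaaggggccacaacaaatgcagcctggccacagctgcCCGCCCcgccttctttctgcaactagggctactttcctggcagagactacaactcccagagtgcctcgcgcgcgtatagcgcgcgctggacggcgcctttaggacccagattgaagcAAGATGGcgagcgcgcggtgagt
Mrps22: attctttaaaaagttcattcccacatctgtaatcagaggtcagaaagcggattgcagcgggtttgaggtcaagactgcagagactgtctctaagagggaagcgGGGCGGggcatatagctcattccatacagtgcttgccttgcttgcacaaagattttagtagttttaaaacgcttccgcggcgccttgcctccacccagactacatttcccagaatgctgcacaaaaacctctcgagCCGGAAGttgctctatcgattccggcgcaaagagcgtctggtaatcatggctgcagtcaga
Mrps25: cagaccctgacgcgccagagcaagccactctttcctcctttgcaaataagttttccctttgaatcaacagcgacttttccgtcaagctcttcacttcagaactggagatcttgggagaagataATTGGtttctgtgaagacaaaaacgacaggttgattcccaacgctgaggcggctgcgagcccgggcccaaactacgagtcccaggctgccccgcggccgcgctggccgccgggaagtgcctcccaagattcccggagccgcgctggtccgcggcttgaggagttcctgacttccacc
Mrpl35: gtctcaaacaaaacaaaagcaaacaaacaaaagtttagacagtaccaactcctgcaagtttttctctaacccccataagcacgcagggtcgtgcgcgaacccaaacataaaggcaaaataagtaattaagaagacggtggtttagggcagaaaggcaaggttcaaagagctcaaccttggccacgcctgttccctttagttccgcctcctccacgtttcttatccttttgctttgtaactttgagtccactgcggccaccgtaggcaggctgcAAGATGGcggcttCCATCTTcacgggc
Mrpl53: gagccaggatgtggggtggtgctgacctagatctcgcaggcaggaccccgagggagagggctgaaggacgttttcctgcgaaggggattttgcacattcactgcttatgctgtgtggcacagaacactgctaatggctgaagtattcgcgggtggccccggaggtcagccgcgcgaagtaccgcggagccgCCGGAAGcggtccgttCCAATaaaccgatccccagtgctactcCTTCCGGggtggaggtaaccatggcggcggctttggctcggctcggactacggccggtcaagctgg
Mrps21: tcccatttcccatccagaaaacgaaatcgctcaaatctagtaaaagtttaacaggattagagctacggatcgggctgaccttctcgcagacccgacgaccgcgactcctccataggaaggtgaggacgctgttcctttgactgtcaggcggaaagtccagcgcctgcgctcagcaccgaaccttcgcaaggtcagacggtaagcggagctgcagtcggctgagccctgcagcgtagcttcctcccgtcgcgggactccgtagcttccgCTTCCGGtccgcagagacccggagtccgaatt
Mrpl18: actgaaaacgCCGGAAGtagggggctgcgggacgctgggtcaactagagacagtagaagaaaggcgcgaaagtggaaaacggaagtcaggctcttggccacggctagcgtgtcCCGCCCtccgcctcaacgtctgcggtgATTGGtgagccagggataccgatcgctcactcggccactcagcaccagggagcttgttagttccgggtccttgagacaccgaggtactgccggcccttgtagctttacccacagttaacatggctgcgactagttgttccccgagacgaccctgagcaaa
Mrpl17: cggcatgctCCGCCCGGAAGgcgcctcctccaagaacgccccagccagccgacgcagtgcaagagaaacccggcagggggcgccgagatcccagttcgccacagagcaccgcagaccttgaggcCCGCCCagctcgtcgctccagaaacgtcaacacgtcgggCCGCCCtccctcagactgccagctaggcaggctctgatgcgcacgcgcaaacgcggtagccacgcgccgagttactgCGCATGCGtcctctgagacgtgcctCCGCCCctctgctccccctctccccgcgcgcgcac
Mrps18c: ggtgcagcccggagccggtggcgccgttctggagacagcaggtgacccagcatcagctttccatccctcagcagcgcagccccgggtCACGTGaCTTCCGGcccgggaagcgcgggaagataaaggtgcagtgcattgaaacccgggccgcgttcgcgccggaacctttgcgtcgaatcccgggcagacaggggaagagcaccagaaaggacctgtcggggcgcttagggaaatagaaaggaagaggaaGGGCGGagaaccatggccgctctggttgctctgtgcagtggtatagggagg
These windows lie at chr10:95501900-95502199 on the minus strand (Mrpl42), chr9:98601630-98601929 on the minus strand (Mrps22), chr6:92183974-92184273 on the minus strand (Mrps25), chr6:71823735-71824034 on the minus strand (Mrpl35), chr6:83108858-83109157 on the plus strand (Mrpl53), chr3:95871465-95871764 on the minus strand (Mrps21), chr17:12916042-12916341 on the minus strand (Mrpl18), chr7:105811038-105811337 on the minus strand (Mrpl17) and chr5:100798509-100798808 on the plus strand (Mrps18c).

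The 9 windows differ in what they hold. The Mrpl17 window had 7 matches, 4 of them to the Sp1 motif, 2 overlapping matches to the NRF1 core on opposite strands just before the start and 1 to the ETS motif, which overlaps the first Sp1 match, and 69.7% of its bases are G or C, with 35 CpG dinucleotides. Mrpl35, marked under AZD2014 alone, had 12 CpG, 48% G or C and matches only to the YY1 motif, both after the start. Mrps25 had a single match, to the NF-Y motif. The ETS matches of Mrpl53 began at positions -59 and -16 relative to the start and that of Mrps22 at position -11. A match is a run of letters and does not show that a factor was bound.

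Where members had a gene-end peak, its rank lay near the middle of those of all marked genes. The median rank was 5506.5 under DMSO, 5806 under AZD2014 and 5191.5 under rapamycin; for all genes with such a peak it was 4984, 5314.5 and 5003. Under DMSO, 48 of the 66 member peaks (72.7%) stood in the upper 50% of the list, compared with 75.6% over all genes. The 75 cytosolic ribosomal protein genes with a DMSO peak had a median rank of 4739, and 92% of them stood in the upper 50%. The mitochondrial ribosomal protein genes thus differed from all genes in how often they were marked, while the middle of their ranks lay slightly lower than that of all marked genes. The high share was not particular to them. Cytosolic ribosomal protein genes were marked at 88.2%, 89.4% and 88.2% under DMSO, AZD2014 and rapamycin. In the same order, the other genes around mitochondrial translation, described below, were marked at 90%, 91.7% and 88.3%.

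Mrpl17, a large-subunit gene with a bacterial homologue, led the members in each list, with scores of 625.37 under DMSO (rank 145), 779.58 under AZD2014 (rank 251) and 773.33 under rapamycin (rank 93). Under DMSO it was followed by Mrps18b (rank 272), Mrps14 (rank 543), Mrpl48 (rank 985) and Mrpl41 (rank 1020). Mrps18b and Mrps14 encode small-subunit proteins, and the Mrps18b region is shared with Ppp1r10, a gene for a regulator of protein phosphatase 1. Mrps14 stood at rank 553 under rapamycin and 1581 under AZD2014. At the other end, the lowest-ranked members under DMSO were Mrps18c (score 52.41, rank 16667), Mrps31 (15182), Mrps34 (15055.5), Mrps5 (14949.5) and Mrpl16 (14705). Of these 5, 4 are Mrps genes.

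By a grouping chosen with these values known, the 28 Mrpl genes numbered up to 36, which mostly have bacterial homologues, had a median DMSO rank of 6990 over the 22 that were marked, and the 21 with higher numbers, which are mostly mitochondria-specific, one of 3518 over 19. The grouping follows the number in the symbol alone. Under AZD2014 the medians were 6756.5 and 3476, and under rapamycin 7053 and 4553, so the second group stood nearer the top in each list. In Mrps genes the same split, at number 21, gave 4951 and 4250 under DMSO, 4999.5 and 5806.5 under AZD2014 and 4939 and 4080.5 under rapamycin, with no fixed order. Since the lists come from the same cell source and mostly share their regions, the 3 lists are not separate evidence of the order among Mrpl genes. The Mrpl groups also differed in how many DMSO peaks reached another gene's end, 50% in the lower-numbered and 68.4% in the higher-numbered group. In the Mrps groups these shares were 53.3% and 20%. Peaks that reached another gene's end stood nearer the top, as given below, and the part of this in the order was not tested.

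At equal list lengths the ranks of members under AZD2014 and DMSO lay about evenly on both sides of each other. Over the 64 members ranked in both, the median difference of AZD2014 minus DMSO was -44.5 places, where a negative value is nearer the top under AZD2014, and over all genes it was -51. A difference of at least 10% of the list, 1718.9 places, toward the top was present at 13 members (20.3%, against 15.8% of all genes), and one away from the top at 10 (15.6%, against 12.4%). Both shares lie near those of all genes. Among the 30 members whose peak reached no other gene's end in either list, the median was 330.75 places, on the other side of 0, and with peaks at the annotated start alone it was 106 over 61 members.

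Mrps18c had the largest difference, with rank 16667 under DMSO (score 52.41, the lowest of the members marked there), 7995.5 under AZD2014 and 9109 under rapamycin. Like Mrps18a and Mrps18b it encodes a relative of a single bacterial ribosomal protein, and its peak is shared with Helq, a DNA helicase gene whose start lies 159 bp away on the other strand. Mrps5 stood at 14949.5 under DMSO and at 9863 and 10197.5 under the drugs, and Mrpl30 at 13042, 8616 and 8783.5. Mrpl13 stood at 11117.5, 7092 and 8546, and Mrpl44, whose product has an RNase III-like fold, at 11793, 8332.5 and 9184. The first 3 of these led the list toward the top under both drugs. Both comparisons use the same DMSO library, so a low DMSO value gives the same direction in both.

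The members that ranked farther from the top under AZD2014 were led by Mrps27, which encodes a pentatricopeptide repeat protein, at rank 2663 under DMSO, 5843 under AZD2014 and 3992 under rapamycin. Next came Mrps10 (11764.5, 14705.5 and 15740), Mrps35 (5517, 8402 and 9477.5), Mrpl3 (9711, 12270.5 and 12439) and Mrpl34 (3996, 6433 and 5106), each under DMSO, AZD2014 and rapamycin in that order. Mrpl3 encodes a protein near the peptidyl transferase centre. All 5 stood farther from the top under both drugs than under DMSO.

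**Figure D1:**
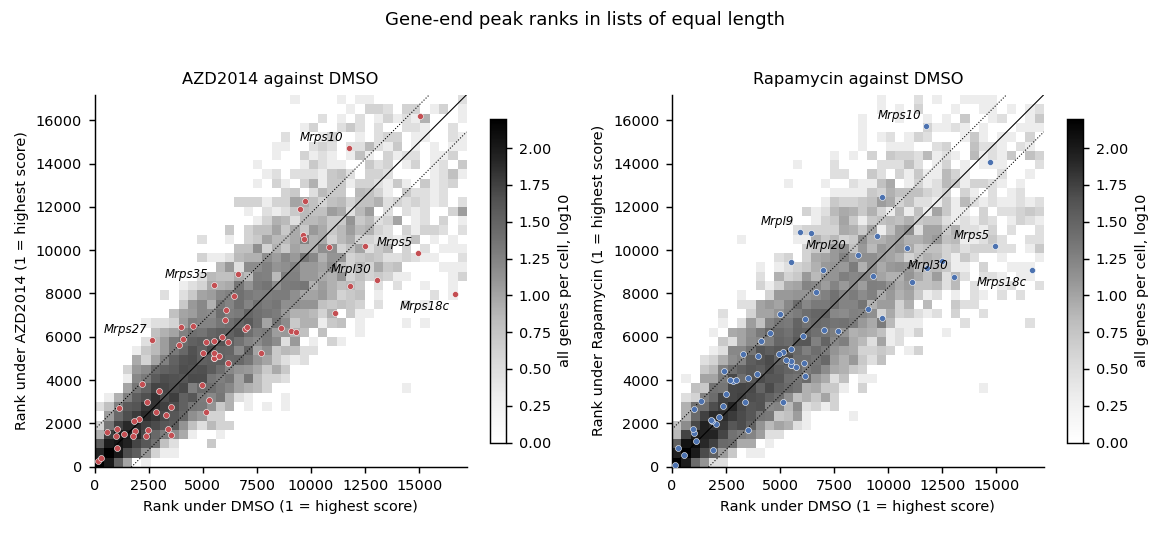
Rank of the gene-end peak under each drug (y axis) against its rank under DMSO (x axis), both 1 for the highest score, in lists shortened to 17189 peaks; coloured points are members, grey cells count all genes on a log10 scale, the solid line marks equal ranks and the dotted lines a difference of 10% of the list. Members lie on both sides of the solid line in either panel, with Mrps18c, Mrps5 and Mrpl30 farthest below it and Mrps10 among the farthest above.

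Under rapamycin the median difference from DMSO over 63 members was 153.5 places, away from the top, and over all genes it was -33.75. It was toward the top by at least 10% of the list at 11 members (17.5%, against 16.1% of all genes) and away from it at 9 (14.3%, against 13.6%). Beside Mrps18c, Mrps5 and Mrpl30, the leading members toward the top were Mrpl28, at rank 12489 under DMSO and 9512 under rapamycin, and Mrpl36, at 9689 and 6844.5. The Mrpl36 value belongs to a peak at the neighbouring complex I gene Ndufs6, centred at -2490.5 bp from the annotated start of Mrpl36 under DMSO. The leading members in the other direction were Mrpl9, at 5905 and 10852, and Mrpl20, at 6447 and 10811, both of which stood closer to their DMSO rank under AZD2014, at 5989 and 7879. They were followed by Mrps10, Mrps35 and Mrpl3, as above. Among the 22 Mrps genes ranked in both lists 6 were nearer the top under rapamycin, and among 41 Mrpl genes 22, where 51.4% of all genes were.

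Between the drugs, a gene-end peak was present under AZD2014 and not rapamycin at 5 members (3.79% of all genes) and under rapamycin and not AZD2014 at 0 (1.21%). At equal lengths these were 5 (2.53%) and 2 (1.79%). The median rank difference, AZD2014 minus rapamycin, was -307 places over 65 members and -16 over all genes. It reached 10% of the list toward the top under AZD2014 at 10 members (15.4%, against 12.8%) and under rapamycin at 4 (6.15%, against 11.8%). Mrpl9 (5989 and 10852) and Mrps15 (6423 and 9770) had the largest differences toward AZD2014, and Mrpl42 (11904 and 7413) and Mrpl36 (10512 and 6844.5) toward rapamycin.

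Peaks at members were wider under both drugs, as they were over all genes. The median width was 740 bp under DMSO, 817 bp with AZD2014 and 851 bp with rapamycin; for all genes with a gene-end peak it was 783, 942 and 906 bp. Gene by gene, the median ratio of AZD2014 to DMSO was 1.21 over 66 members, with 58 (87.9%) wider under AZD2014, and over all genes the ratio was 1.22, with 85.3% wider. It was 1.21 for rapamycin over 64 members, with 52 (81.2%) wider, and 1.16 over all genes, with 77.4% wider. A ratio of at least 1.5 was reached by 9 members under AZD2014 (13.6%, against 19.5% of all genes) and by 10 under rapamycin (15.6%, against 13.6%), and a peak narrower by that factor under AZD2014 by 0 members (0.468% of all genes). Between the drugs, 3 members were wider by that factor under AZD2014 (5.43% of all genes) and 1, Mrpl43, under rapamycin (2.08%). Widths depend on depth and on the settings of the peak caller, and the part of these in the greater widths was not tested.

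The widest member peak was that of Mrpl40 under rapamycin, 2123 bp, against 1361 bp under DMSO and 1499 bp under AZD2014. It is shared with Hira, which encodes a histone chaperone, and under rapamycin it reached to -1624 bp from the Mrpl40 start. Mrpl58, which encodes a peptidyl-tRNA hydrolase that rescues stalled ribosomes, had 1285, 1475 and 1729 bp, but this peak lies at the far end of the gene, 9560 bp from the start under DMSO, and a second, weaker one lies at the start (scores 88.66, 107.05 and 110.86). Mrpl41 had 1430, 1511 and 1527 bp and Mrpl51 1102, 1568 and 1407 bp. The narrowest were Mrps31 with 259 bp and Mrpl33 with 295 bp under DMSO, followed by Mrps10 with 328 and Mrps18c with 390 bp. Mrpl33 had 468 bp under AZD2014 and 638 bp under rapamycin, and Mrps18c 711 and 742 bp. Mrps35 was the only member narrower by 1.5 times or more under a drug than under DMSO, with 772 bp under DMSO, 698 bp under AZD2014 and 492 bp under rapamycin, against 1.02% of all genes for rapamycin.

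**Figure D2:**
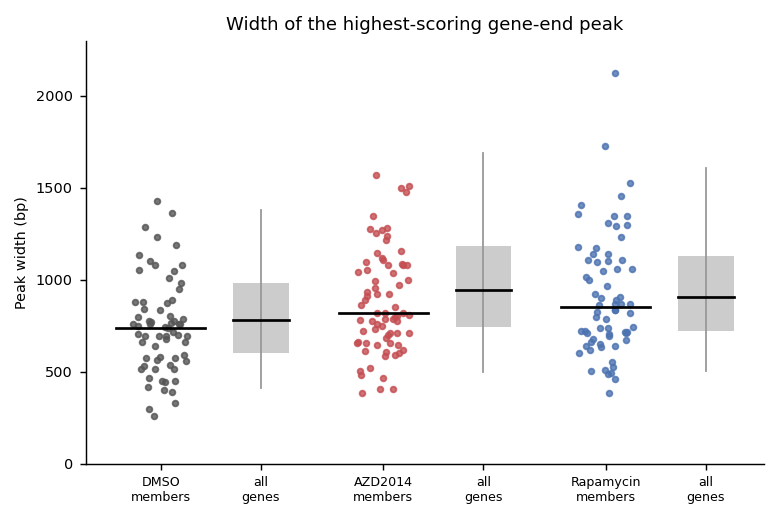
Width in bp of the highest-scoring gene-end peak (y axis) in each list, with 1 point per member and a black line at the median, beside all protein-coding genes (box from the 25th to the 75th percentile, line at the median, whiskers from the 5th to the 95th percentile). Member medians of 740, 817 and 851 bp lie below those of all genes, 783, 942 and 906 bp.

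Member peaks sat on the transcription start. Of the 58 members with a DMSO gene-end peak and an annotated start, 53 (91.4%) had a peak that covered the start, compared with 86.7% over all genes, and under AZD2014 and rapamycin 61 of 65 (93.8%) and 56 of 60 (93.3%). The median distance from the middle of the peak to the start was 91, 86 and 102.5 bp. Apart from Mrpl36 and Mrpl58, the peaks that missed the start were those of Mrpl20, centred 706.5 bp into the gene under DMSO, Mrps10, whose peak ended upstream of the start in all 3 lists, and Mrpl11, a gene for a protein of the ribosomal stalk base, under DMSO alone. Besides Mrpl36 and Mrpl58, the members with 2 gene-end peaks in each list were Mrps18b, Mrpl38, Mrpl34 and Mrpl2, and Mrps34 had 2 under AZD2014. At Mrps34 the highest-scoring peak under AZD2014 reached Eme2, and under DMSO and rapamycin Mapk8ip3. Its widths, 730 bp under AZD2014, 415 bp under DMSO and 386 bp under rapamycin, therefore come from different places. Mrps34 is nevertheless counted above as wider by at least 1.5 times under AZD2014, against DMSO and against rapamycin.

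**Figure D3:**
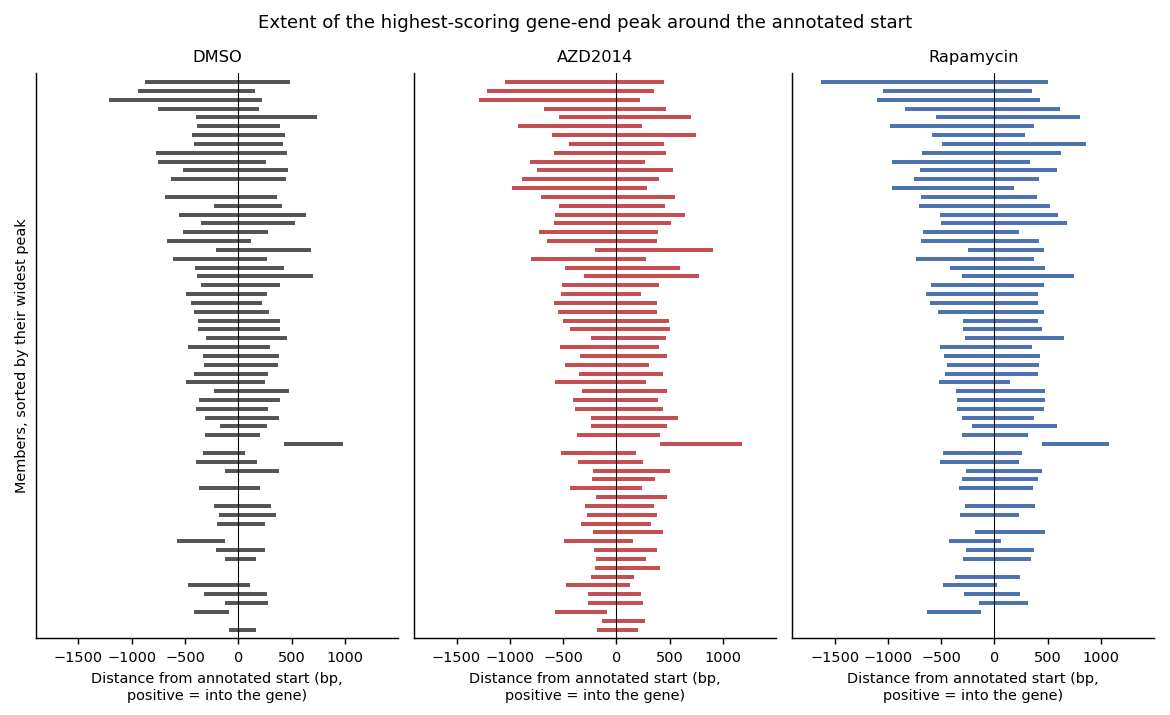
Extent of the highest-scoring gene-end peak of 63 members (rows, sorted by their widest peak) relative to the annotated start (x axis in bp, negative is upstream), for DMSO, AZD2014 and rapamycin. Nearly all bars cross the start, the bars off to the right belong to Mrpl20, and Mrpl58 and Mrpl36, whose peaks lie over 1500 bp away, are not drawn.

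Member peaks often lay at the end of another gene as well. In the DMSO list 34 of 66 member peaks (51.5%) reached within 1 kb of the end of another protein-coding gene, compared with 29.8% over all genes and 25.3% over cytosolic ribosomal protein genes. The shares were 50.7% and 52.9% under AZD2014 and rapamycin. At 24 of the 58 members with a start and a DMSO peak (41.4%), against 19.1% of the 8218 such genes in all, a gene on the opposite strand had its own start within 1 kb of the peak, at a median of 136 bp from the start of the member. Open chromatin there cannot be assigned to either gene of the pair.

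Several of the partners are mitochondrial genes themselves. Mrps11 and Mrpl46, one for each subunit, are transcribed from starts 42 bp apart on opposite strands and had 1 peak between them, with a score of 193.42 under DMSO, 306.93 under AZD2014 and 253.12 under rapamycin (ranks 5520, 4999.5 and 4688). Mrps12, whose product belongs to the decoding centre, shares its peak with Sars2, the mitochondrial seryl-tRNA synthetase gene, with starts 147 bp apart, at ranks 1783, 1432 and 2159. Mrpl43 is paired with Twnk, the gene of the mitochondrial DNA helicase, at 116 bp, Mrpl47 with the complex I gene Ndufb5 at 308 bp, and Mrps27 with Ptcd2 at 108 bp. Mrpl49 is paired at 192 bp with Fau, which encodes a protein of the cytosolic ribosome. The other partners include Psma2, a proteasome subunit gene (Mrpl32), Rab6a (Mrpl48) and Ncapd2, a condensin gene (Mrpl51).
The promoter of Mrps11, of whose 300 bases 141 are also in the window of Mrpl46, is printed because it carries the peak of a gene of each subunit, with capitals as above (chr7:78782881-78783180 on the plus strand).
Mrps11: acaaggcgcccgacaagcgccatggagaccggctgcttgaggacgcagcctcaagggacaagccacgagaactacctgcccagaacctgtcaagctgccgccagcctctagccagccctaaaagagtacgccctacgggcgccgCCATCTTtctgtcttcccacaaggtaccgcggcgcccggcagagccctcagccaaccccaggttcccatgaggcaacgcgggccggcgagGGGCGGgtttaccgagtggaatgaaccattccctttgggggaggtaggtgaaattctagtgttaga
It holds 1 match to the YY1 motif at position -106 and 1 to the Sp1 motif.

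Members whose peak reached another gene's end had a median DMSO rank of 5132.5, and the others 5973. Over all genes the medians were 4021.5 and 5463, so in both sets the shared peaks stood nearer the top. A shared peak also had a larger width, with a median of 762.5 bp against 697.5 bp in members and 851 against 749 bp over all genes.

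The promoters of members were compared with others by the same 7 motifs. Sequences matched 69 of the 78 members, which have 75 windows of 300 bases. Windows of 1 gene can overlap and share a match, so shares are given by gene, a gene counting once if any of its windows held the motif, a count chosen after the values had been seen. The ETS motif was at 26 of 69 members (37.7%, exact interval 26.3 to 50.2), at 23.4% of the 8088 protein-coding genes with a peak at the start in all 3 lists and at 12.9% of all 17492 protein-coding genes with a window. For YY1 the shares were 18.8% (10.4 to 30.1), 8.84% and 7.18%, and for the NRF1 core 11.6% (5.14 to 21.6), 8.27% and 4.96%. The Sp1 motif was at 49.3% of members (37.0 to 61.6), below the 73.8% of genes with a start peak and beside 49.2% of all protein-coding genes. NF-Y had 39.1%, 45.2% and 42.3%, the E-box 7.25%, 12.5% and 8.91% and the TATA box 7.25%, 7.41% and 14.8%. Cytosolic ribosomal protein genes had 36.4% for ETS and 15.2% for YY1, both inside the member intervals. Counted by window, the ETS motif was in 34.7% of member windows, 20.1% of those of genes with a start peak, 11.6% of all protein-coding ones and 8.86% of all 32851 windows of the table, and the Sp1 motif in 52%, 66.6%, 46.2% and 35.7%. The member windows had a median of 58.7% G or C and 21 CpG, and those of genes with a start peak 61.7% and 22.

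**Figure D4:**
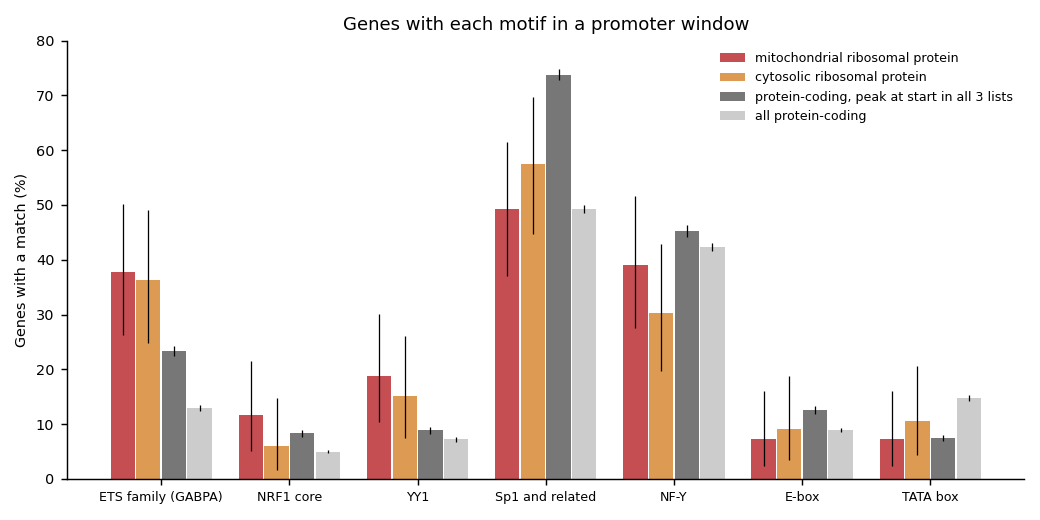
Share of genes (y axis, percent) with at least 1 match in a 300-base promoter window to each of 7 motifs (x axis), for members, cytosolic ribosomal protein genes, protein-coding genes with a start peak in all 3 lists and all protein-coding genes; error bars are exact 95% intervals over genes. The ETS and YY1 bars of members stand above those of genes with a start peak, at 37.7% against 23.4% and 18.8% against 8.84%, and the Sp1 bar below, at 49.3% against 73.8%, and level with that of all protein-coding genes.

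The matches differed in place, counted in 1 window per gene, the one with the lowest coordinate. Of 31 ETS matches, 19 began within 100 bases before the start. Of 15 YY1 matches, 9 began after the start, and the YY1 motif contains ATG, so that a start codon in the last 50 bases can make a match. Of 63 Sp1 matches, 32 began within 100 bases before the start, and 29 were on the strand of the gene. Members with an Sp1 match in any of their windows had a median rank at the start of 4741 under DMSO (32 genes). Those without one had 9060 (31 genes). The medians were 4999.5 and 8916 under AZD2014 and 4688 and 8984 under rapamycin. With the ETS motif, by contrast, the DMSO medians were 5519 (23 genes) and 5520 (40 genes). The same split is not given for all genes, so it is unknown whether the Sp1 difference is particular to members. The part of G and C content in it was not tested.

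Other genes around mitochondrial translation were read in the same way, from a list of 60 genes made with earlier results of these data known. The list holds 5 further mitochondrial ribosomal protein genes, 16 translation factors and 26 genes of ribosome assembly and rRNA. It also holds 4 genes of mitochondrial DNA transcription and 9 nuclear regulators, which are not themselves translation genes. Of these 54 had a gene-end peak under DMSO, 55 under AZD2014 and 53 under rapamycin. No list marked 4 of the 60 (6.67%), against 48.5% of all genes, and such genes cannot differ in status. Of the 5 mitochondrial ribosomal proteins without an Mrp symbol, Dap3, Ptcd3, Chchd1 and Aurkaip1 had a peak in every list, and Gadd45gip1 had none at a gene end or in the gene in any. Status differed between lists at 5 of the 60 (8.33%), against 7.93% of all genes: Mtif3, an initiation factor gene, was marked under rapamycin alone (score 69.44), Mtrf1, a release factor gene, Eral1, the gene of an rRNA chaperone, and Tefm, a mitochondrial transcription elongation factor gene, under DMSO and AZD2014, and Ddx28, a helicase gene, under both drugs. The 16 translation factors stood low under DMSO, with a median rank of 9701 over 15 genes, against 7043 under AZD2014 and 7043 under rapamycin. Tsfm, the gene of the elongation factor Ts, stood at 17154.5, 11913 and 7957.5, and Guf1 at 11093.5, 5961 and 5479.5. Of 14 translation factor genes ranked in both lists at equal lengths, 12 were nearer the top under AZD2014 than under DMSO, where 52.2% of all genes were, and 11 under rapamycin, where 51.4% were. For members these numbers were 32 of 64 and 28 of 63. Over the whole list of 60 they were 34 of 53 and 26 of 51. Its other parts had 14 of 24 and 11 of 23 (assembly and rRNA) and 2 of 4 and 2 of 4 (ribosomal proteins). They had 2 of 4 and 0 of 3 for mitochondrial transcription and 4 of 7 and 2 of 7 for regulators. Both comparisons use the same DMSO library, in which the translation factors stood low.

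Among genes of the factors named above, Yy1 had a peak in each list, at ranks 1425, 362 and 907, with a width of 1472 bp under DMSO and 2862 and 2858 bp under the drugs. Gabpa stood at ranks 552, 942 and 956 and Nrf1 at 4832, 3342 and 3932. Ppargc1b, the gene of a coactivator of mitochondrial genes, had ranks of 6853, 15463.5 and 14580.5, the largest differences from DMSO among the listed regulators. Of the others, Esrra stood at 371, 387 and 407, Pprc1 at 5877, 4927 and 6353 and Myc at 8187.5, 7725 and 8812.5. Ppargc1a and Gabpb1 had no gene-end peak in any list, but a peak at a start or in the gene in each. The 85 cytosolic ribosomal protein genes had a gene-end peak at 75, 76 and 75 members, and status differed at 1 of them (1.18%), against 9 of the 78 mitochondrial ones (11.5%) and 7.93% of all genes. The 9 include Mrpl18, whose status came from the edge of the window. These shares have unlike bases, because a gene marked in no list cannot differ. Such genes were 48.5% of all genes, 6.41% of the mitochondrial set and 10.6% of the cytosolic set. The lowest-ranked DMSO peak of the cytosolic set stood at 13968.5, and that of the mitochondrial set at 16667. The part of nearness to the threshold in the different shares was not tested.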

How the data were processed

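ATAC-seq peaks of HSCs under DMSO, AZD2014 and rapamycin were analysed, with 1 library per condition. The authors deposited 1 peak list per library with a score per peak. The submitters' processing notes name CASAVA and the build mm10. The peak names carry the word MACS, while the aligner, the settings of the caller and any read shift were not given in the sources used here; such steps bear on the number and width of weak peaks. Read depth is unknown. The score was used only to rank peaks within a list.

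Groups came from the sample titles. Genes and promoter windows came from RefSeq tables on GRCm38.p6, the assembly mm10 names, and members were matched by symbol. A gene-end peak overlaps the 1 kb on either side of a gene end by at least 1 bp, and the highest-scoring one stood for the gene. Lists were also shortened to 17189 peaks. The members and gene lists were chosen with earlier results of these data known. Named genes were those whose status differed between lists or that had no gene-end peak, the 5 highest and lowest DMSO ranks, the 5 largest rank differences each way, the 5 widest and narrowest peaks, members with 2 or more gene-end peaks, listed genes and neighbours that share a peak. Alternatives covered window size, list length, peak size, choice of peak and shared peaks. The overlap code was tested on altered copies of the DMSO list and found 100% of 200 removed and 300 added peaks. Python 3.11.15, numpy 2.4.6, pandas 2.3.3, scipy 1.17.1 and matplotlib 3.10.9 were used.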

Additional observations from a re-analysis of the deposited data

How the results depend on the processing

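Of 149 values recomputed under an alternative, 137 lay within 1.5 times the main count or within the interval of the main value and 12 did not. In the upper 50% of each list, 13 members were marked at a gene end under AZD2014 and not DMSO (main 7), 8 under rapamycin and not DMSO (main 4), 9 under AZD2014 and not rapamycin (main 5) and 1 under rapamycin and not AZD2014 (main 0). With equal list lengths, 2 had one under DMSO and not AZD2014 and 2 under rapamycin and not AZD2014 (main 0 for each), and both numbers were also 2 when the annotated start and gene body were added, an alternative chosen after seeing the data. With gene ends of 500 bp, 1 member was marked under DMSO and not rapamycin (main 2). The median rank difference of AZD2014 minus DMSO, -44.5 places, was -811.431 from ranks as percent of the full lists and 330.75 for peaks that reach no other gene, and that of rapamycin minus DMSO, 153.5, was 600.75 for such peaks. The former median was also above 0, at 146.5 with gene ends of 2500 bp and 106 with the annotated start alone. The cause was not tested. The upper 50% and the peaks reaching no other gene keep fewer peaks by construction. A rank as percent of the full list is smaller by construction for the same rank in a longer list. The AZD2014 list has 21321 peaks and the DMSO list 17189. The width ratios and the motif shares by window stayed within their intervals in the alternatives run, the count by gene included, which was added after seeing the data. No paired analysis was possible because each condition has 1 library. Depth is unknown, so a peak missing from a list limits a statement to the authors' threshold.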
